A study of Mus musculus with 4 samples.

Results

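Hepatic glucose and glycogen metabolism was followed through 9 genes, Pck1, G6pc, Fbp1, Pklr, Slc2a2, Ppp1r3g, Ppp1r3c, Gys2 and Pygl, out of 37074 gene names on the array. The 9 genes were chosen with earlier results of these data known. Their probes were taken by gene name: every probe that is not a control and carries one of these names was taken, which gave 1 probe and 1 spot a gene. All 9 probes were well above background on all 4 arrays, so no gene was lost to a filter on dim signals. Their lowest signal was 5.59 times the background signal of its spot.

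The study asked what role glycine N-methyltransferase (GNMT) has in the kidney injury caused by aristolochic acid type I (AAI), a plant compound. It used male and female mice, and its GNMT transgenic and knockout mice are not on these arrays. Liver RNA of C57BL/6 wild-type mice was hybridised to 4 single-colour Agilent arrays, and each array held RNA pooled from 5 mice. The F AAI pool came from females injected intraperitoneally with AAI at 5 mg/kg/day and the M AAI pool from males given 2 mg/kg/day, each on 5 days a week for 3 weeks from an age of 6 weeks. The F and M corn oil pools received the vehicle alone on the same schedule. Sex and dose therefore changed together between the AAI pools, and a difference between F and M in the response to AAI cannot be told apart from a difference in dose. With 1 array a group there were no replicates, so no test of a difference between groups was possible and every fold below describes these 4 pools. A pool hides the spread between its mice, and in whole liver fewer cells of a type and less RNA per cell cannot be told apart.

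Hepatocytes keep blood glucose steady by storing it as glycogen after a meal and by releasing it between meals. Glycogen phosphorylase opens the store and glycogen synthase fills it, and protein phosphatase 1, carried to the glycogen particle by targeting subunits of the Ppp1r3 family, switches the first off and the second on. In fasting, glucagon acting through cyclic AMP and glucocorticoids raises the transcription of the gluconeogenic genes, while insulin and feeding lower it and favour glycolysis.

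The promoter sequences of 4 of these genes are shown because they are the genes on which the values below turn: Ppp1r3g had the largest differences between pools, Slc2a2 the highest ratio in F, Pck1 the lowest ratio in F among the gluconeogenic genes and G6pc the lowest ratio in M. Each is the 250 bases before the start of the gene, read 5′ to 3′ on the gene's strand, from RefSeq on build GRCm38.p6. Capitals mark the letters of any of 5 motifs searched on both strands: ACGTCA (part of the cyclic AMP response element), CACGTG (the E-box core of carbohydrate response elements), TATAAA (the letters of the TATA box), CCAAT (the core of the CCAAT box) and TTCNNNGAA (the core of STAT sites). No motif overlapped another in these 4 windows.
Ppp1r3g, chr13:35967656-35967905, plus strand: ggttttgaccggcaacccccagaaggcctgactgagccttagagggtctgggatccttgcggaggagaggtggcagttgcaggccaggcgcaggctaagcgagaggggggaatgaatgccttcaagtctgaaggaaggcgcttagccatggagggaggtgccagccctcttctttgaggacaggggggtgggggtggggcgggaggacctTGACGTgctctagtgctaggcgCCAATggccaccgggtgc
Slc2a2, chr3:28697653-28697902, plus strand: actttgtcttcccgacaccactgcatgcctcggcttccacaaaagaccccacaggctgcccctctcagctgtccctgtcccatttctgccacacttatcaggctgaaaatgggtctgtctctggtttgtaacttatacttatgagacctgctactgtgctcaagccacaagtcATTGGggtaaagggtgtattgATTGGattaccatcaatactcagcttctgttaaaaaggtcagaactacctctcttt
Pck1, chr2:173152823-173153072, plus strand: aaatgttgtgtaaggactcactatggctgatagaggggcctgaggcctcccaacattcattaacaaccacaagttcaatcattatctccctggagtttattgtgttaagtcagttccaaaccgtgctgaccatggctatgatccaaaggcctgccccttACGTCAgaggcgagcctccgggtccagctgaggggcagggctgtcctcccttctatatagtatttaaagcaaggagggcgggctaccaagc
G6pc, chr11:101367466-101367715, plus strand: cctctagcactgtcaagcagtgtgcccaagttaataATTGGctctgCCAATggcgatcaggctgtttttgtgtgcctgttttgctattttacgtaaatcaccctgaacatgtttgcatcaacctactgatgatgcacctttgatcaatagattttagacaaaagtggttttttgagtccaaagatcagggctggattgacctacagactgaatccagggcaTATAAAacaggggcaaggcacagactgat

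Windows were found for 8 of the 9 genes, 9 windows in all since Pklr has 2 starts; Gys2 was not in the table used. ACGTCA stood in 2 of the 9 windows, Ppp1r3g (as its reverse complement, 40 bases before the start) and Pck1 (91 bases before the start), and in 6.47% of all 32851 windows. CCAAT stood in 6 of the 9 windows and in 33.8% of all windows, TATAAA in 2 of 9 and 12.4%, CACGTG in 1 of 9 (Ppp1r3c) and 6.02%, and TTCNNNGAA in 0 of 9 and 7.02%. These matches are descriptions of the letters in the windows and were not set against any binding data.

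Values are given as log2 of the normalised signal of the brightest probe of a gene. A log2 ratio is the AAI pool minus the corn oil pool of the same sex, and a difference was counted from 2-fold, which is 1 on the log2 scale. In place of replicates, 2 technical yardsticks were used. The scanner software put its error at 10% to 10.2% of each signal of the 9 genes, which is 0.20 to 0.21 on a log2 ratio. Over all genes with several probes, the log2 ratios of probes of one gene had a median SD of 0.25 in F (9129 genes), 0.24 in M (8619 genes) and 0.23 between the corn oil pools (8894 genes). A smaller value came from probes with 8 or more spots and was not used as a yardstick. The log2 ratios of spots of one probe had a median SD of 0.08 in F, 0.07 in M and 0.06 between the corn oil pools. None of these values holds the spread between mice or between hybridisations.

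In F, 1 of the 9 genes was at least 2-fold lower and 0 were at least 2-fold higher, against 3.09% lower and 1.48% higher among the 31682 genes measured. The gene was Ppp1r3g. The median log2 ratio of the 9 genes was -0.23, against 0.04 over all genes. In M, 0 of the 9 genes passed 2-fold in either direction, against 3.51% higher and 4.66% lower among 30539 genes, and the median was -0.20 against 0.00 over all genes. The absolute ratio was larger than the SD between probes for 5 of the 9 genes in F and 6 of 9 in M. Of the genes well above background on both arrays, it was so for 54.1% in F and 54.9% in M. These shares were close to the background of the array.

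**Figure D1:**
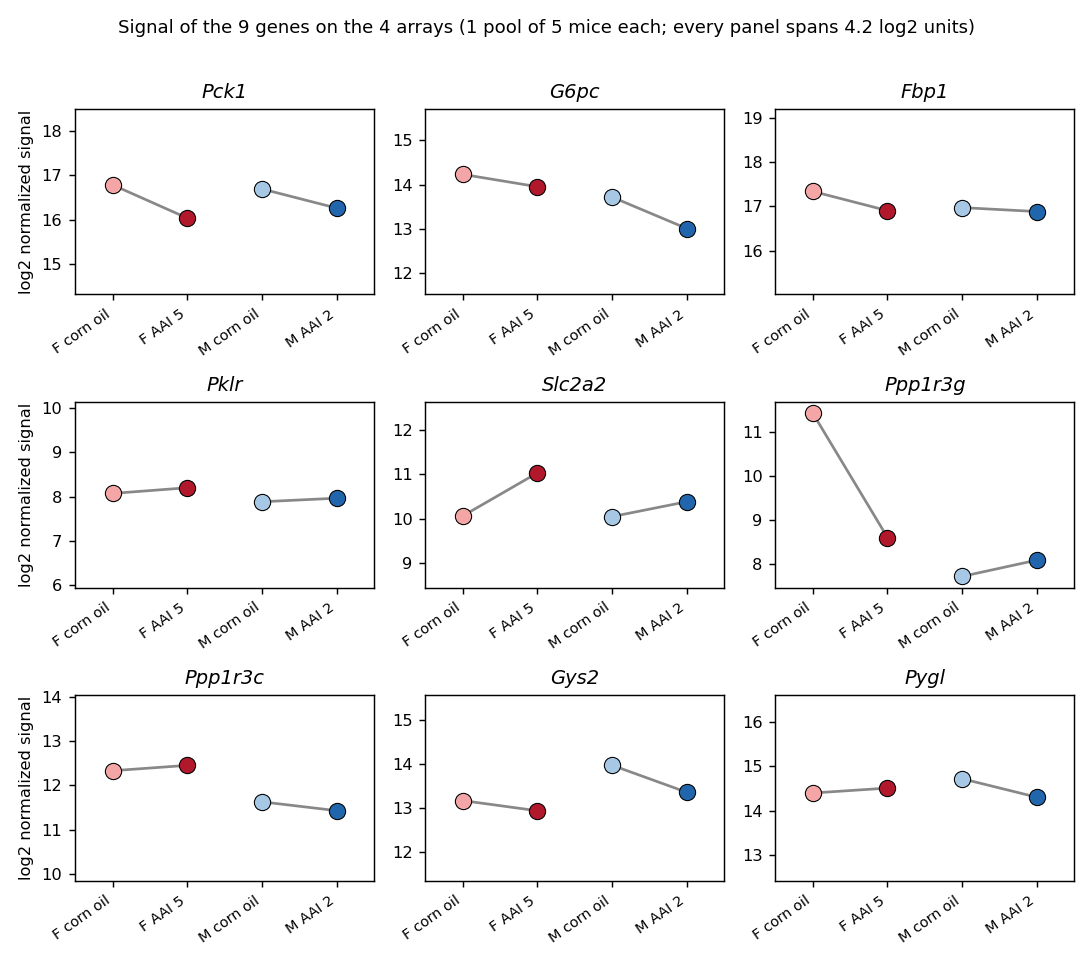
Log2 normalised signal of the 9 genes on each of the 4 arrays, 1 point an array and 1 panel a gene, with a line joining the pools of a sex (each point is a pool of 5 mice and has no error bar). The F corn oil point of Ppp1r3g stands at 11.42, above the other 3 arrays at 7.72 to 8.60; levels of different genes are not comparable because each has its own probe.

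Among the gluconeogenic genes, all 3 had a lower signal in the AAI pool of both sexes (Fbp1 in M turned sign under 75th percentile scaling), and none reached 2-fold. Pck1 encodes the cytosolic phosphoenolpyruvate carboxykinase, which makes phosphoenolpyruvate from oxaloacetate. Its probe (mm9, chr2:172984307-172984366) read 16.78 in F corn oil, 16.03 in F AAI, 16.69 in M corn oil and 16.26 in M AAI. Both corn oil pools were above both AAI pools, and M corn oil minus F corn oil was -0.09. The log2 ratio was -0.75 in F, 1.68-fold, and -0.43 in M, 1.35-fold. Of the genes well above background on both arrays (29715 in F and 28434 in M), 5.65% in F and 15.7% in M lay as low or lower.

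G6pc, the catalytic subunit of the glucose-6-phosphatase that releases free glucose from the hepatocyte, had its lowest value in M AAI. Its probe (mm9, chr11:101238947-101239006) read 14.23 in F corn oil, 13.95 in F AAI, 13.72 in M corn oil and 13.01 in M AAI. Both F pools were above both M pools. The log2 ratio was -0.28 in F and -0.71 in M, 1.64-fold. Of the genes well above background on both M arrays, 7.61% were as low or lower. The ratio in F minus that in M was 0.43, which was not tested.

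Fbp1 encodes the hepatic fructose-1,6-bisphosphatase, the step that opposes phosphofructokinase. Its probe (mm9, chr13:62966175-62966234) read 17.34 in F corn oil, 16.90 in F AAI, 16.97 in M corn oil and 16.88 in M AAI. The F corn oil pool was highest and the other 3 arrays lay between 16.88 and 16.97. The log2 ratio was -0.44 in F, 1.35-fold. In M it was -0.09, smaller than the scanner error, and it turned to 0.12 when the arrays were scaled to their 75th percentile.

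Pklr, the liver and red cell pyruvate kinase that ends glycolysis and is regulated by carbohydrate intake, varied least of the 9 genes. Its probe (mm9, chr3:88948907-88949425, an interval that spans more than 1 exon) read 8.07 in F corn oil, 8.20 in F AAI, 7.88 in M corn oil and 7.96 in M AAI. Before normalisation its processed signals were 239 to 304, at the lowest 5.67 times background. The small variation was therefore measured at a low signal. The log2 ratios of 0.13 in F and 0.08 in M were both smaller than the scanner error. The carbohydrate-responsive factor Mlxipl, which acts on Pklr, had log2 ratios of -0.56 in F and -0.38 in M by its brightest probe, but its 2 other probes gave -0.18 to -0.04 in F and 0.18 to 0.25 in M, the opposite sign.

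Slc2a2, the glucose transporter GLUT2 of the hepatocyte surface, had the largest positive ratio of the 9 genes in F. Its probe (mm9, chr3:28625253-28625961, also spanning more than 1 exon) read 10.06 in F corn oil, 11.04 in F AAI, 10.05 in M corn oil and 10.38 in M AAI. Both AAI pools were above both corn oil pools, and M corn oil minus F corn oil was -0.01, a sign that turned under 2 of 6 alternatives. The log2 ratio in F was 0.98, or 1.97-fold, just short of the 2-fold mark, and 0.87 to 0.98 over 6 other ways of processing. Of the genes well above background on both F arrays, 1.27% had a ratio as high or higher. In M the log2 ratio was 0.34, 1.26-fold, and it was 0.14 after normexp background correction. The ratio in F minus that in M was 0.64, which was not tested.

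Ppp1r3g encodes a targeting subunit that brings protein phosphatase 1 to glycogen in liver, and it was the 1 gene of the 9 that changed 2-fold. Its probe (mm9, chr13:36061999-36062058) read 11.42 in F corn oil, 8.60 in F AAI, 7.72 in M corn oil and 8.09 in M AAI. Before normalisation the processed signals were 2660, 399, 227 and 262 in the same order. The F corn oil array stood apart, and the other 3 arrays lay between 7.72 and 8.60 on the log2 scale. In F the signal fell by 2.81 on the log2 scale, or 7.03-fold, which was the 34th lowest ratio of 29715 genes above background on both arrays (0.114% as low or lower). Over 6 other ways of processing the ratio in F was -2.86 to -2.45. In M the log2 ratio was 0.37, 1.29-fold, and 0.33 to 0.44 over the same alternatives. The Ppp1r3g signal was at the lowest 5.59 times background, the lowest of the 9 genes. The ratio in M was therefore measured at a low signal. The ratio in F minus that in M was -3.18, and this difference was not tested.

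Between the corn oil pools, Ppp1r3g was 12.9-fold lower in M than in F (log2 ratio -3.69, and -3.76 to -3.22 over the alternatives), the 16th lowest of 29112 genes. This comparison and that of F AAI with F corn oil share the F corn oil array, so a single pool of 5 mice carries both. Between the AAI pools, M minus F was -0.51 on the log2 scale. No other array of F corn oil-treated mice was analysed here, and whether other pools of this group show the level was not tested.

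**Figure D2:**
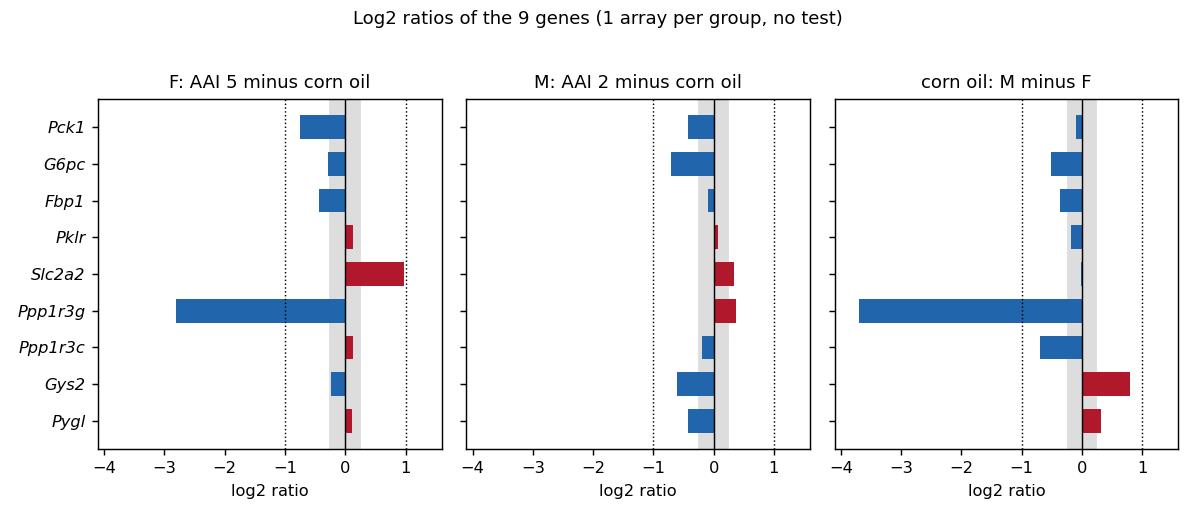
Log2 ratios of the 9 genes in F (AAI 5 mg/kg/day minus corn oil), in M (AAI 2 mg/kg/day minus corn oil) and between the corn oil pools (M minus F), 1 bar a gene (red higher, blue lower), with the SD between probes of one gene as a grey band and the 2-fold marks dotted; there are no replicates and no error bars. Ppp1r3g lies beyond 2-fold in F, at -2.81, and between the corn oil pools, at -3.69, and the other 8 genes lie within 2-fold throughout.

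Ppp1r3c, which encodes the targeting subunit PTG found in several tissues, differed by sex more than by treatment. Its probe (mm9, chr19:36806457-36806516) read 12.33 in F corn oil, 12.45 in F AAI, 11.63 in M corn oil and 11.43 in M AAI. Both F pools were above both M pools, and M minus F was -0.70 (1.63-fold) between the corn oil pools and -1.02 between the AAI pools. The log2 ratios to AAI were 0.12 in F and -0.20 in M, each within the scanner error.

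Gys2, the liver glycogen synthase that Ppp1r3 subunits act on, ran the other way between the sexes. Its probe (mm9, chr6:142371157-142371216) read 13.17 in F corn oil, 12.94 in F AAI, 13.97 in M corn oil and 13.36 in M AAI. Both M pools were above both F pools, by 0.80 between the corn oil pools, or 1.74-fold. The log2 ratio was -0.23 in F, within the SD between probes, and -0.61 in M, 1.53-fold. Of the genes well above background on both M arrays, 9.79% were as low or lower.

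Pygl, the liver glycogen phosphorylase, had small ratios of opposite sign. Its probe (mm9, chr12:71291855-71291914) read 14.40 in F corn oil, 14.51 in F AAI, 14.72 in M corn oil and 14.30 in M AAI. The log2 ratio was 0.11 in F, under the scanner error, and -0.42 in M, 1.34-fold. Between the corn oil pools M exceeded F by 0.32, which was 0.06 with scaling to the 75th percentile.

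Across the 9 genes the sign of the ratio was the same in F and M for 6, of which 4 were lower (Pck1, G6pc, Gys2 and Fbp1, the last turning sign in M under 75th percentile scaling) and 2 higher (Pklr and Slc2a2) in the AAI pools. It was opposite for 3, and among these Ppp1r3g alone exceeded the SD between probes in F and in M. Its ratio in M was measured at a low signal, whereas that SD is a median over all genes with several probes. Between the corn oil pools, 1 of the 9 genes was at least 2-fold lower in M and 0 were higher, against 1.86% lower and 3.95% higher (5.8% in either direction) among 30891 genes, with a median of -0.19 against -0.03 over all genes. Over all 4 arrays, 5 of the 9 genes spanned less than 1 on the log2 scale.

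The members of the Ppp1r3 family differed from one another. Ppp1r3b, the main targeting subunit of liver, read 15.52 in F corn oil, 14.27 in F AAI, 15.38 in M corn oil and 14.68 in M AAI. Both AAI pools were below both corn oil pools. It fell in F by 1.25 on the log2 scale, 2.37-fold, and its ratio in M was -0.70, 1.63-fold. Between its corn oil pools, M minus F was -0.14. Ppp1r3a, the subunit of striated muscle, was not well above background in either corn oil pool. Its signal was at least 1.21-fold higher in F AAI and at least 3.38-fold higher in M AAI. The F bound was taken against the lowest signal well above background on the corn oil array. The M bound was taken against the probe's own corn oil reading of 4.78, which was not below that limit. Ppp1r3d had log2 ratios of -0.24 in F and 0.75 in M, and Ppp1r3e had 0.04 and 0.01, or 0.53 and -0.13 by its other probe. Ppp1r3f was well above background on the M corn oil array alone, and it was at least 1.39-fold lower in M AAI.

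**Figure D3:**
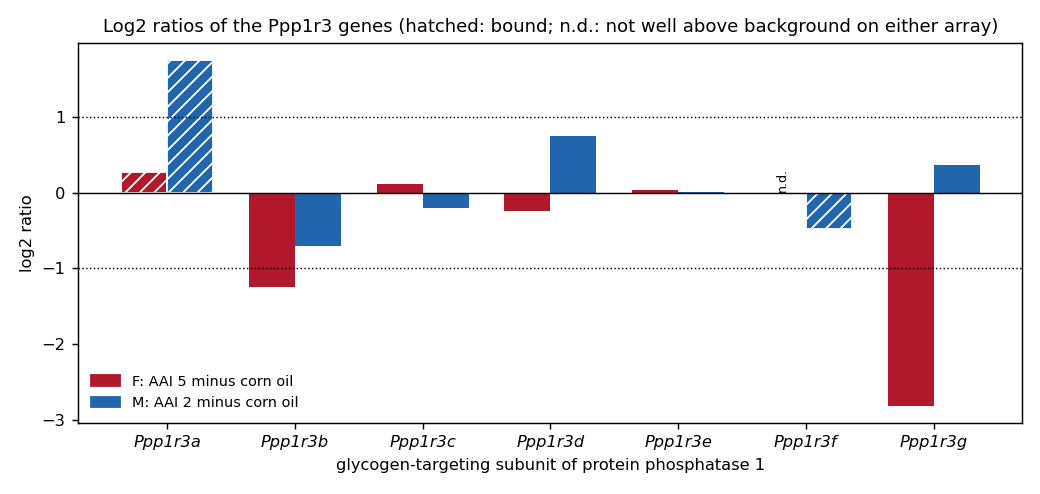
Log2 ratios of the 7 Ppp1r3 genes on the array, AAI minus corn oil, in F (red) and M (blue), with the 2-fold marks dotted. Hatched bars are bounds because the probe was not well above background on 1 of the 2 arrays, and n.d. marks a pair with neither array well above background. Ppp1r3g and Ppp1r3b pass 2-fold downward in F, and Ppp1r3a passes it upward in M.

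The rest of the pathway was read from 10 lists of 178 further genes on the array. In F, 4 of 176 measured genes were at least 2-fold higher and 5 lower, or 5.11%, against 4.56% of all genes. In M, 20 of 177 were higher and 3 lower, or 12.99%, against 8.17% of all genes. The lower ones include Pdpr, whose M AAI signal was filled in by the scanner software. The higher ones include Arrdc4, which was lower in M by its other probe. The medians over all measured pathway genes were 0.00 in F and 0.12 in M, against 0.04 and 0.00 over all genes.

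The counterparts of the 9 genes in other tissues, and glycolytic genes best known from muscle, gave the following values. Pygm, the muscle glycogen phosphorylase, read 7.89 in F corn oil, 8.78 in F AAI, 7.76 in M corn oil and 10.92 in M AAI, a log2 ratio of 0.89 in F and 3.16 in M. Gys1, the glycogen synthase of muscle and other tissues, had 0.43 and 1.67. Slc2a4, the insulin-regulated transporter GLUT4 of muscle and fat, had 2.02 and 4.90. Pgam2, the muscle phosphoglycerate mutase, had 3.06 and 5.02. Eno3, the muscle enolase, had 0.77 and 3.15. Fbp2, the muscle fructose-1,6-bisphosphatase, was below 2-fold in both sexes with 0.63 and 0.79. For Pkm, the pyruvate kinase of most other tissues, the probes disagreed in M: the brightest gave 0.51 in F and 0.80 in M, and the 3 others gave 0.21 to 0.40 in F and -0.78 to 1.92 in M. Pygb, the brain phosphorylase, had -0.43 and 0.02 (-0.54 in F by its other probe), Pck2, the mitochondrial carboxykinase, had 0.14 and 0.27, and G6pc3, the widely expressed phosphatase, had -0.46 and 0.70 by its brightest probe but 0.42 and 0.26 by the other, so that its sign in F depended on the probe.

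Skeletal muscle markers differed between the same pools. Of 15 listed markers, such as Tnni2 and Tnnc2 of the troponin complex, 14 were at least 2-fold higher in F AAI and 14 in M AAI. Over all genes, 1.48% and 3.51% were at least 2-fold higher. The summed signal of the 15 muscle markers was 2554 in F corn oil, 58590 in F AAI, 7766 in M corn oil and 456357 in M AAI, 22.9-fold and 58.8-fold higher in the AAI pools. Adrenal markers (10 genes) summed to 3762, 3712, 6805 and 46842 in the same order, and fat markers (9 genes) to 1795, 2473, 17090 and 58481. In M, 6 of the fat markers rose and 1 fell, Elovl3, which read 13.58 in M corn oil and 7.87 in M AAI and is named after its values were seen. Without Elovl3 the fat sums were 1589, 2354, 4876 and 58248, so that the ratio in M was 11.9 in place of 3.42. Of the hepatocyte markers, 10 of 10 were well above background on all 4 arrays, with sums of 2113500, 2204160, 2050690 and 1994630. Their median log2 ratio was 0.04 in F and -0.19 in M. By AAI 0 of 10 changed 2-fold, against 4.56% of all genes in F and 8.17% in M. The F corn oil array, on which Ppp1r3g was high, had the lowest sum of the muscle and fat markers. Among the other arrays the order differed. Ppp1r3g read 7.72 in M corn oil and 8.60 in F AAI. M corn oil had a lower muscle sum than F AAI (7766 against 58590) but a higher fat sum (17090 against 2473). The part that muscle, adrenal and fat RNA had in the values of the pathway genes was not tested.

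**Figure D4:**
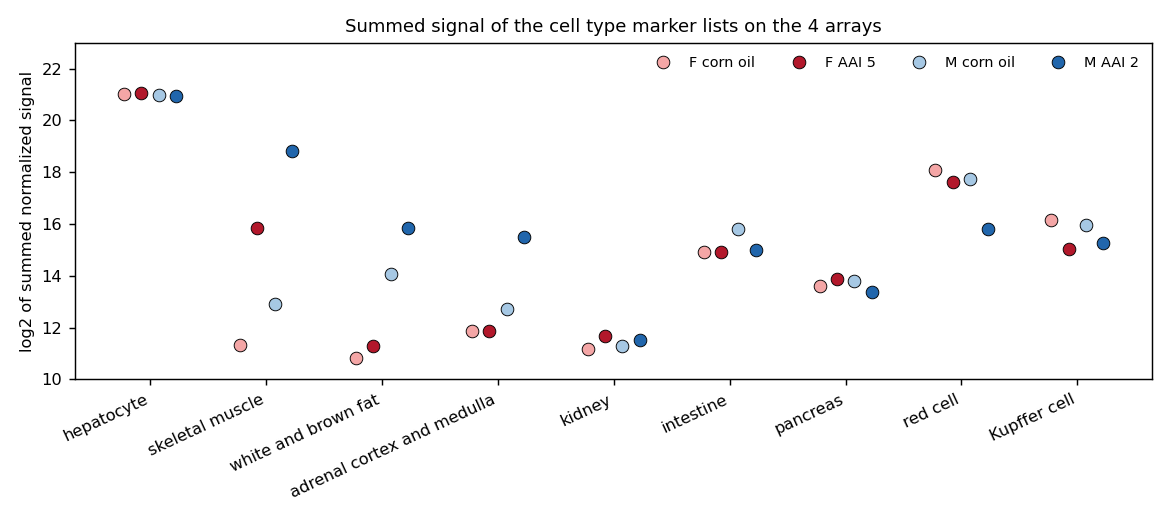
Summed normalised signal of the marker genes of each cell type or tissue on the 4 arrays, 1 point an array, drawn as log2 of the sum. Before taking log2, the hepatocyte sums lie between 1994630 and 2204160, whereas the skeletal muscle sum runs from 2554 in F corn oil to 456357 in M AAI.

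The shares to set beside each list, here and below, are those over all genes. In F 1.48% were at least 2-fold higher and 3.09% lower, and in M 3.51% and 4.66%, with medians of 0.04 and 0.00. Counts in lists this short were not tested against these shares. By list, 15 gluconeogenic partners were measured, of which 0 rose and 1 fell in F, and 2 rose and 1 fell in M (medians 0.07 and 0.24). Got1, the cytosolic aspartate aminotransferase, rose in M by 1.30 and had -0.62 in F. Its other probes gave 1.88 to 1.98 in M and -0.08 to 0.09 in F. Ldhb, a lactate dehydrogenase subunit abundant in heart, rose in M by 3.49 and had 0.51 in F. G6pc2, a glucose-6-phosphatase relative best known from pancreatic islets, read 6.03 in F corn oil, 4.78 in F AAI, 8.81 in M corn oil and 5.38 in M AAI. It fell in both sexes, by 1.24 and 3.42 on the log2 scale, and its M corn oil value was the highest of the 4 arrays. Its AAI readings were low, and its other probe was not well above background on both arrays of either comparison.

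Of 27 glycolytic enzymes measured, 2 rose in F and 5 in M and 0 fell in either sex (medians 0.09 and 0.19). Besides Pgam2 and Eno3, Hk2 (a hexokinase of muscle and fat) had log2 ratios of 0.44 in F and 2.49 in M, Pfkm (the muscle phosphofructokinase) 0.37 and 1.78, and Aldoa (the aldolase of muscle and red cells) 0.54 and 1.66. Pfkfb1, the bifunctional enzyme that sets fructose-2,6-bisphosphate in liver, rose in F by 1.13 and had 0.07 in M. Its other probe gave 1.32 and 0.42.

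Of 14 genes of pyruvate entry into mitochondria, 0 passed 2-fold in F, and in M 2 rose and 1 fell (medians -0.15 and 0.23). Pdk4, the kinase that shuts off pyruvate dehydrogenase in fasting, read 10.16 in F corn oil, 10.05 in F AAI, 8.60 in M corn oil and 10.52 in M AAI, a log2 ratio of -0.11 in F and 1.93 in M. The M corn oil array was the low one of the 4. Pdp1, the phosphatase that reverses it, had -0.27 and 1.29, and 0.61 in M by its other probe. Pdpr, a regulatory subunit of that phosphatase, had -0.20 and -4.23, but the M AAI signal of this probe was a value filled in by the scanner software, and its 3 other probes gave -0.34 to 0.14 in M.

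Among 28 further glycogen enzymes and regulators, 1 fell in F (Ppp1r3b, 27 measured) and 5 rose in M (28 measured), with medians of 0.00 and 0.15. The 5 were Pygm, Gys1, Ppp1r3a, Gyg (the glycogenin that primes the chain, 0.27 in F and 1.70 in M) and Phkg1 (the muscle phosphorylase kinase catalytic subunit, -0.29 and 1.12). Of 14 fructose and pentose phosphate genes 1 rose in M, Akr1b3 (the aldose reductase), with 0.16 in F and 1.26 in M, and 0 passed 2-fold in F. Of 12 carriers measured in each sex, Slc2a4 rose in both sexes and Slc2a3, the transporter GLUT3, fell in M (-0.37 in F and -1.15 in M). The 20 genes of insulin and glucagon signalling held no 2-fold difference in either sex, with medians of -0.07 in F and -0.01 in M. The glucagon receptor Gcgr had log2 ratios of 0.00 and -0.10 and the insulin receptor Insr -0.19 and -0.03, or 0.10 and -0.09 by its other probe.

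Of 20 transcriptional regulators, 1 rose and 2 fell in F, and 2 rose and 0 fell in M (medians -0.38 and -0.02). Nr1d1, the circadian repressor REV-ERBα, which also lowers gluconeogenic transcription, read 4.61 in F corn oil, 10.01 in F AAI, 7.90 in M corn oil and 8.49 in M AAI. F corn oil was the low array, as it was the high one for Ppp1r3g, and the log2 ratio was 5.40 in F and 0.58 in M. On F corn oil, Slc2a10 at 4.56 was well above background and Ppp1r3a at 3.17 was not. The size of the Nr1d1 ratio in F therefore rests on a low reading of 1 array. Nr4a1, an orphan receptor that cyclic AMP induces, read 10.74, 8.84, 8.98 and 10.51 in the same order, so that it fell in F by 1.89 and rose in M by 1.53. Ppargc1a, the coactivator that fasting induces to raise gluconeogenesis, read 9.96, 9.06, 8.33 and 9.61, with -0.90 in F and 1.29 in M, or -1.23 and 1.75 by its other probe. Cebpb, a factor acting on Pck1, fell in F by 1.07 and had -0.18 in M. Foxo1, the factor that insulin holds out of the nucleus, had -0.75 and 0.04, or -0.73 and -0.38 by its other probe. Hnf4a, a factor that maintains hepatocyte genes, had -0.42 and -0.38, or -0.96 and -0.27 by its other probe.

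Of 15 genes responsive to glucocorticoids or fasting, 1 fell in F and 0 passed 2-fold in M (medians -0.28 and 0.19). It was Tsc22d3, a direct glucocorticoid receptor target, which fell in F by 1.55 and had -0.96 in M (-1.23 and -0.45 by its other probe). Of 12 carbohydrate responsive genes, 0 passed 2-fold in F and 2 rose in M (medians 0.15 and 0.46). They were Thrsp, a lipogenic regulator, with -0.19 and 1.28, and Arrdc4, with 0.01 and 1.11 by its brightest probe but -0.21 and -0.50 by the other. Time of death and feeding state of the mice are not given in the sources used here. The paper reports weight loss in AAI-treated wild-type mice of both sexes. The part of time of death, feeding and weight loss in these values was not tested.

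**Figure D5:**
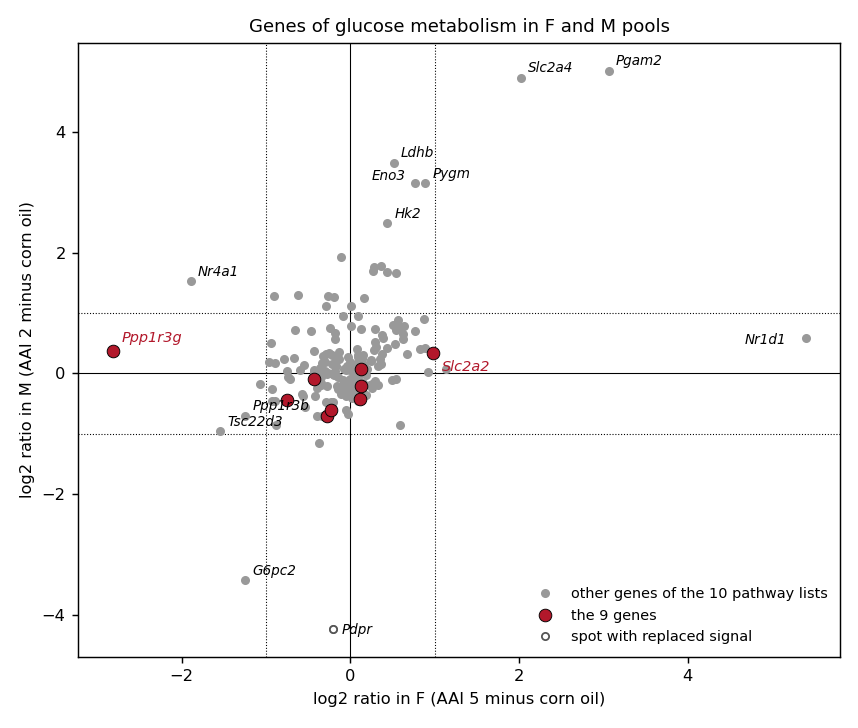
Log2 ratio in F (x axis) against that in M (y axis) for the 9 genes (red) and the other measured genes of the 10 pathway lists (grey), with the 2-fold marks dotted and a spot with a filled-in signal shown open. Ppp1r3g lies far left at -2.81 and 0.37, while Slc2a4, Pgam2, Ldhb, Eno3 and Pygm lie high in M.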

How the data were processed

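Liver RNA pools of 4 groups (F AAI, F corn oil, M AAI, M corn oil; 1 array each) were compared within sex and between corn oil pools. The authors scanned the arrays with Agilent Feature Extraction 10.5.1.1 and deposited background-subtracted, trend-corrected processed intensity per spot, linear and not normalised between arrays; 2 of the 4 files hold 3 significant digits (at most 0.01 on the log2 scale). The deposited series table, with a normalised intensity, served as an alternative. Gene names and mm9 probe positions are those of the array files.

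Control spots and outlier spots were left out, spots of a probe averaged, log2 values quantile-normalised over 56495 probes (Python 3.11.15, pandas 2.3.3, numpy 2.4.6), and the brightest probe taken per gene. A gene counted as changed from 2-fold, with its probe well above background on at least 1 of both arrays. Where it was so on 1 only, the fold is a bound. The other array then entered with the higher of the probe's own signal and the lowest signal well above background there. The calculation was tested on simulated data. Alternatives were 75th percentile scaling, normexp (limma 3.58.1, R 4.3.3), no multiplicative trend correction, the deposited normalised intensity, the mean of probes, replaced spots left out, no filter and a 3-fold mark. Array precision is limited by the number of arrays. Members and lists were chosen with earlier results of these data known. From each pathway list every gene changed 2-fold by AAI was named, beside the non-hepatic counterparts of the members; other list genes were named after their values were seen.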

Additional observations from a re-analysis of the deposited data

Results flagged for a closer look

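Some genes had AAI ratios of opposite sign in F and M, and none of these differences between the sexes was tested. Ppp1r3g had a log2 ratio of -2.81 in F and 0.37 in M. Nr4a1 had -1.89 in F and 1.53 in M. Ppargc1a had -0.90 in F and 1.29 in M. Got1 had -0.62 in F and 1.30 in M, with one of its other probes at 0.09 in F. Pdp1 had -0.27 in F and 1.29 in M, and Phkg1 had -0.29 in F and 1.12 in M.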

How the results depend on the processing

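No paired analysis was possible because each group had 1 array, and for the same reason no replicate could be left out. The count of the 9 genes past 2-fold was 1 in F, 0 in M and 1 between the corn oil pools under every alternative run. Their median log2 ratio was -0.27 to -0.19 in F and -0.33 to -0.14 in M. Counts over all genes changed more. In F they were 1446 as reported, 482 with normexp, 355 at 3-fold and 2511 without the filter on dim probes. In M they were 2495, 1197, 990 and 4033, and between the corn oil pools 1793, 700, 544 and 3076. Of the genes called in F, 67.6% were lower, and 51.3% with 75th percentile scaling. Of 54 recomputed values of the 9 genes, 53 in F, 54 in M and 50 between the corn oil pools moved by less than the SD between probes. Many of these values could hardly move. Each of the 9 genes had 1 probe, so the mean of probes left its value as it was. None had a replaced spot, so leaving such spots out changed little. The deposited intensity was quantile-normalised as well. Small ratios turned sign for Fbp1 in M (1 of 6 alternatives) and Slc2a2 between the corn oil pools (2 of 6). With 1 pool a group, the spread between mice is unknown. Leaving Elovl3 out of the fat marker sum, chosen after seeing the data, moved its ratio in M from 3.42 to 11.9 and in F from 1.38 to 1.48.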

Other observations

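Of the 176 pathway genes measured between the corn oil pools, 6 were at least 2-fold higher in M and 8 lower, or 7.95%, against 5.80% of all genes. The following were named after their values were seen, and each rests on 1 pool a sex. Asns, the asparagine synthetase gene of the amino acid response, read 6.77 in F corn oil, 7.69 in F AAI, 10.16 in M corn oil and 10.19 in M AAI, so that both M pools were above both F pools. Stbd1, a protein that anchors glycogen to membranes, was 1.19 higher on the log2 scale in M corn oil than in F corn oil, but 0.46 to 0.95 higher by its 2 other probes. Pfkfb3, a bifunctional enzyme that raises glycolysis, was 1.68 higher, but 0.72 by its other probe. Igfbp1, a gene of the liver that insulin lowers, was 1.14 lower in M corn oil (log2 ratio -1.14), with AAI ratios of -0.28 in F and -0.02 in M. The summed signal of 6 Kupffer cell markers, the resident macrophages of liver, was 2.14-fold lower in F AAI and 1.59-fold lower in M AAI than in the corn oil pool of the same sex. Of these markers, 5 were lower and 1 higher in F, and 4 were lower and 2 higher in M. The red cell marker sum was 1.37-fold lower in F AAI and 3.84-fold lower in M AAI. Of 6 red cell markers measured in each sex, 5 were lower and 1 higher in F, and likewise in M.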
